A study of Mus musculus with 11 samples.

Results

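The kappa variable segments (Igkv) were taken as every row of the deposited gene table whose symbol starts with Igkv, which gave 79 of 10885 genes. All 79 were read in each of 11 RNA-seq libraries of mouse lymph node (LN) and spleen, as a sum, as the share of that sum held by each segment, as an effective number of segments and as subfamily use (the number after Igkv names the subfamily). Each of the 79 was a protein-coding variable gene in the GENCODE M21 annotation, which lists 160 Igkv genes, 100 of them coding and 60 pseudogenes. Every row of the deposited table reached at least 109.3 in some library, so segments that stayed low in all libraries were not analysed here, and the 79 are not the whole locus.

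A kappa light chain is made when a developing B cell joins 1 Igkv segment to 1 Igkj segment, upstream of the constant exon Igkc, so the variable transcripts in a tissue report which segments its B cells and plasma cells chose and how strongly those cells transcribe them. A B cell that fails to make a useful kappa chain can rearrange the lambda locus (Iglv, Iglc) instead, and in the mouse most antibodies normally carry kappa. Segments that lie in the same orientation as Igkc join it by deletion of the DNA between them, and segments in the opposite orientation join it by inversion.

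The tissues came from 6 mice. KI mice (mice 5 and 6) carried Igk-BCL2, a knock-in at the kappa locus itself, which places the survival gene BCL2 there. Tg mice (mice 3 and 4) carried 3'RR-BCL2, a transgene whose name refers to the 3' regulatory region, the enhancer cluster of the heavy chain locus. Mice 1 and 2 were wild-type (Wt). All 6, Wt included, received sheep red blood cells intraperitoneally, in 3 immunisations over 3 months, with tissue taken 1 month after the third. RNA came from dissociated cells of the whole tissue, with no sort. LN was read in 2 KI, 2 Tg and 2 Wt mice, and spleen in 2 KI mice, 1 Tg mouse (mouse 4) and 2 Wt mice. The labels used here give no zygosity, strain, age or sex, and do not say whether the inserted BCL2 replaces or joins the kappa gene. In such bulk tissue, fewer cells of a type and less RNA per cell cannot be told apart.

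Coding sequences of 6 segments are shown because the results turn on them. Igkv1-117 and Igkv1-110 led the kappa signal of KI mouse 5, and Igkv10-96 led in Tg mouse 4 and in the LN of Wt mouse 2. Igkv3-2, Igkv3-1 and Igkv2-109 led the few kappa reads of KI mouse 6, with 57 of 146 reads in LN and 106 of 198 in spleen. Each is the last 300 bases of the coding sequence, 5′ to 3′, in the GENCODE M21 transcript (GRCm38, chromosome 6), which leaves out most of the leader peptide. Capitals mark bases that differ from the most similar other Igkv gene of that annotation.

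Igkv1-117: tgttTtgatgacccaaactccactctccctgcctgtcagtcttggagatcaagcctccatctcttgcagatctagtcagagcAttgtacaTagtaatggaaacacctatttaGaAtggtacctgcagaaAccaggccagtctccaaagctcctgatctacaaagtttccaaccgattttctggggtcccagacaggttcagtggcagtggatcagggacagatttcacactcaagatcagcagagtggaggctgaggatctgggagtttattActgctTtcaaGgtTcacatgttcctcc
Igkv1-110: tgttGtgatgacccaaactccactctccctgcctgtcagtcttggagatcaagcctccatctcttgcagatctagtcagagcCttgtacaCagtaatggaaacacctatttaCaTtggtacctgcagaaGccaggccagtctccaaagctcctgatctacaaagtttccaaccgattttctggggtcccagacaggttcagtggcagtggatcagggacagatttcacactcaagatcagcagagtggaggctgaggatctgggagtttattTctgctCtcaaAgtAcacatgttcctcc
Igkv10-96: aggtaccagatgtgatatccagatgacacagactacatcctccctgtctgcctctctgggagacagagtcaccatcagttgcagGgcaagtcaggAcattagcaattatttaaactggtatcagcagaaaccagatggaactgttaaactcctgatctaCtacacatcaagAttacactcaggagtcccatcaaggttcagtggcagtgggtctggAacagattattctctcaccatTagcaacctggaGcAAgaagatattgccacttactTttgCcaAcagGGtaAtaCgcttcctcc
Igkv3-2: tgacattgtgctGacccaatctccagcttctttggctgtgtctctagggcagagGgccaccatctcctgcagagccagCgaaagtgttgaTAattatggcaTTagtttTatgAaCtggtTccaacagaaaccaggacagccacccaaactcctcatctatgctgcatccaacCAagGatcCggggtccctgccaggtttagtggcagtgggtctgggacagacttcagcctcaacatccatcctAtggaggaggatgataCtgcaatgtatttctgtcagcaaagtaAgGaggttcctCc
Igkv3-1: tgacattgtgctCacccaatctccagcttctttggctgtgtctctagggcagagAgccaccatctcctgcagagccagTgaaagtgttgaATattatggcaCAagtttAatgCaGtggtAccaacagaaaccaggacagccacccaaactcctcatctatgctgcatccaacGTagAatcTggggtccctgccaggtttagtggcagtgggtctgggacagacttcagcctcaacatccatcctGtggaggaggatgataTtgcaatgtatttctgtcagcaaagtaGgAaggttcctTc
Igkv2-109: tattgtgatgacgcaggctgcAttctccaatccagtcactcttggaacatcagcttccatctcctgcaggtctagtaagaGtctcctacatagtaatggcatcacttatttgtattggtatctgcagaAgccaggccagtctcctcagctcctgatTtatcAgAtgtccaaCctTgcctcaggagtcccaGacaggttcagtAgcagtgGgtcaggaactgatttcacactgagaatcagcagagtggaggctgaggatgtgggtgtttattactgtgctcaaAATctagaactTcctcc

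Igkv1-117 and Igkv1-110 were each other's nearest relative, at 97.2% identity and 10 differing bases over the 359 of the coding sequence. Igkv3-2 and Igkv3-1, the pair nearest to the Igkj segments in the annotation's gene order, were 92.8% identical. Igkv10-96 was nearest to Igkv10-94 at 95.4%, and Igkv2-109 to Igkv2-116 at 95.9%. Across subfamilies the sequences shown were 62.9% to 77.5% identical. Of the 79 segments, 38 had another Igkv gene at 95% identity or more over the coding sequence. How reads shared between such copies were counted was not given in the sources used here, so the split within such pairs is uncertain. Sums and subfamily shares are less exposed to that split, but would change too if shared reads were dropped, which was not checked.

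The deposited values are read counts divided by 1 factor per library, called normalised signal below. Recovered reads per library ranged from 11128568 to 21067988 in LN and from 18994455 to 24110325 in spleen, and 1 read was worth between 0.716 and 1.61 units of signal. The labelled tissues carried their markers: the sum of 6 red pulp macrophage genes was 4109 to 6750 in the 5 spleen libraries and 251 to 968 in the 6 LN libraries, and 8 of 8 B cell markers were measured. The 2 KI mice differed from each other in Igkv by more than any other pair of libraries of 1 group, so each result that rests on KI is given per mouse and with each KI mouse left out.

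The Igkv signal of the KI group lay on both sides of Wt. In LN the 79 segments summed to 206681 in KI mouse 5 and 168 in KI mouse 6, to 12714 and 15148 in Tg mice 3 and 4, and to 12025 and 13578 in Wt mice 1 and 2. In spleen the sum was 172700 in KI mouse 5 and 142 in KI mouse 6, 55683 in Tg mouse 4, and 36311 and 43756 in Wt mice 1 and 2. KI mouse 5 was the highest library and KI mouse 6 the lowest in both tissues, and the Tg libraries stood near or above Wt. The sum of KI mouse 5 was 16.1 times the Wt mean in LN and 4.31 times in spleen, while that of KI mouse 6 was 0.0131 and 0.00354 times the Wt mean of the same tissue. Jchain, the joining chain of secreted antibodies, was high in both KI mice: it read 122650 and 128795 in KI mice 5 and 6 LN against 2972 and 3700 in Wt LN. In spleen Jchain read 105380 and 61413 in KI mice 5 and 6 against 11929 and 10992 in Wt.

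**Figure D1:**
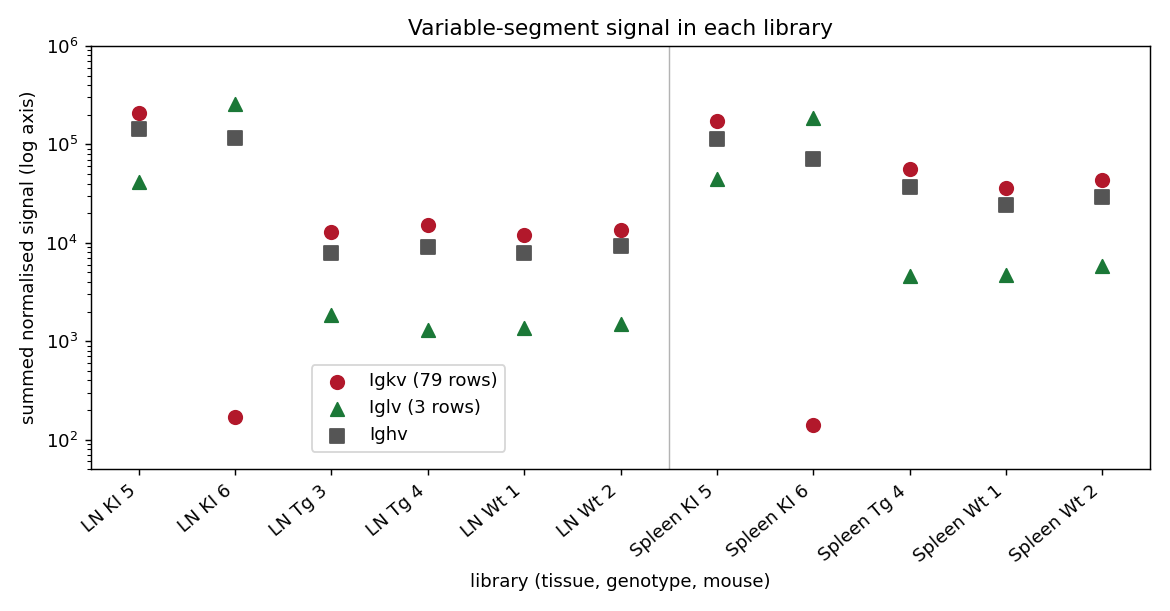
Summed normalised signal of the 79 Igkv rows (circles), the Ighv rows (squares) and the 3 Iglv rows (triangles) in each of the 11 libraries, on a log axis, 1 point per library. In KI mouse 6 the Igkv sum was 168 in LN and 142 in spleen, below every other library, while its Iglv sum, at 255641 and 184634, was the highest.

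In reads, KI mouse 6 held 146 Igkv reads of 15125180 in LN and 198 of 24110325 in spleen, which are 0.000965% (95% exact Clopper-Pearson interval 0.000815% to 0.00114%) and 0.000821% (0.000711% to 0.000944%) of the library. KI mouse 5 held 188312 and 201379 Igkv reads, 1.15% of its LN library and 0.983% of its spleen library. Intervals and limits of this kind cover counting error only. In KI mouse 6, 38 of 79 segments in LN and 42 in spleen were listed at 0, where a count of 0 allows up to 3 reads, 2.05% of the Igkv reads in LN and 1.52% in spleen.

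Per segment, the group comparison called nothing. With limma on log2(value + 1) over all 11 libraries, 0 of 79 segments were called at an adjusted p under 0.05 in KI against Wt LN, where 26.0% of all genes were called in either direction, and 0 of 79 in spleen, where 16.8% were. At an unadjusted p under 0.05 the counts were also 0 in both tissues; edgeR on LN reads called 0 (19.8% of all genes) and DESeq2 called 1 (24.2%). The median segment difference was -0.83 in LN and -2.77 in spleen, against -0.02 and 0.01 over all genes, and the residual SD of a segment had a median of 4.33 on the log2 scale, against 0.156 over all genes. The LN median had the opposite sign on the recovered reads, at 2.95 with edgeR and 2.95 with DESeq2. In LN none of the 79 segments had both KI libraries on 1 side of both Wt libraries, whereas 32.0% of all genes had both above and 34.8% had both below. In spleen 2 segments had both KI libraries below both Wt libraries, Igkv8-16 and Igkv4-59, against 31.9% of all genes.

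The calls appeared when either KI mouse was left out, in opposite directions. Without both tissues of mouse 6, limma called 61 segments higher and 0 lower in KI against Wt LN (all genes, 9.53% higher and 6.75% lower), and 29 higher and 0 lower in spleen (2.47% and 3.28%). Without both tissues of mouse 5 it called 69 lower and 0 higher in LN (all genes, 5.06% lower and 7.05% higher), and 73 lower and 0 higher in spleen (3.94% and 1.98%). A single KI library then stands for its group and is assumed to vary like the others. Igkv9-123, Igkv8-18, Igkv8-34, Igkv1-133, Igkv4-58 and Igkv4-90 reached 109.3, the smallest row maximum of the table, only in KI mouse 5. They are in the table through that mouse, so their being high in it is no evidence. KI against Tg LN moved in the same way: 0 of 79 called with all libraries (26.7% of all genes in either direction), 59 higher and 0 lower without mouse 6 (8.35% and 6.49% of all genes), and 71 lower and 0 higher without mouse 5 (5.13% and 6.16%).

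The sums gave no usable group difference either. On the log2 scale the Igkv sum differed between KI and Wt by -1.12 (LN) and -3.01 (spleen), with a pooled SD of 5.13 in each tissue (exact two-sided permutation p = 1 in both, n = 2 against 2, where 0.33 is the smallest p the design allows). On the arithmetic scale the LN sum was 103424 ± 146027 in KI against 12802 ± 1098 in Wt (SD, n = 2 each), so the sign of the difference depended on the scale used for averaging.

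The split ran through nearly every segment. KI mouse 5 was above both Wt LN libraries in 78 of 79 segments, where 40.3% of all genes were, with a median of 3.92 and a range of 0.31 to 5.93 on the log2(value + 1) scale against the Wt mean. The exception was Igkv5-45, at 39.5 in KI mouse 5 and 14.5 and 42.7 in Wt. KI mouse 6 was below both Wt LN libraries in 78 of 79, where 43.8% of all genes were; the exception, Igkv1-132, was listed at 0 in KI mouse 6 and in both Wt LN libraries. The median of KI mouse 6 was -5.69, or -5.19 over 78 segments with those at 0 set to 3 reads. In spleen KI mouse 5 was above both Wt libraries in 69 of 79 segments (42.5% of all genes) and below both in 2, Igkv8-16 and Igkv4-59, while KI mouse 6 was below both in 79 of 79 (40.4% of all genes). The segments named above that reached 109.3 only in KI mouse 5 add no evidence to the 78 or the 69 of that mouse.

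Igkv1-117 shows the pattern of a strong segment. It read 14605 in KI mouse 5 and 1.15, a single read, in KI mouse 6 LN, 481 and 591 in Tg LN, and 437 and 564 in Wt LN. In spleen it read 9578 and 3.58 in KI mice 5 and 6, 2163 in Tg mouse 4, and 1447 and 1774 in Wt. Igkv1-110, its near copy, read 12576 in KI mouse 5 and 4.6 in KI mouse 6 LN, 534 and 707 in Tg LN, and 477 and 479 in Wt LN. For both genes the highest and the lowest LN value came from the KI group. Igkv8-16 shows the weakest split: it read 43.9 in KI mouse 5 and 2.30 in KI mouse 6 LN against 35.5 and 35.0 in Wt LN, and in spleen 43.7 and 0.716 in KI against 134 and 101 in Wt.

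**Figure D2:**
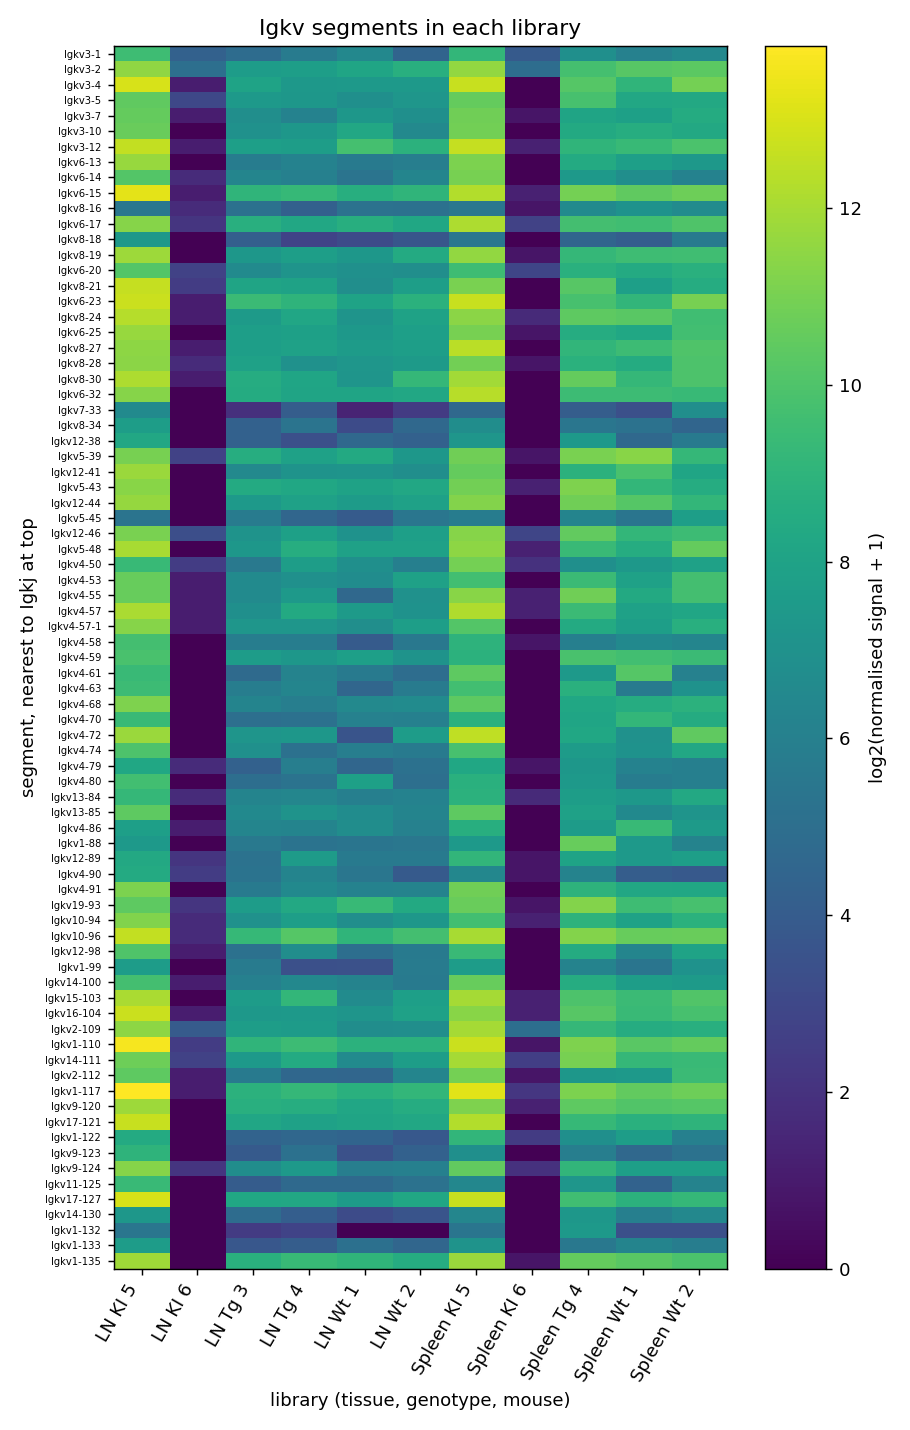
Log2(normalised signal + 1) of each of the 79 Igkv segments (rows, in the annotation's gene order with the segment nearest to Igkj at the top) in each of the 11 libraries (columns). KI mouse 5 is above both Wt libraries of its tissue in 78 rows in LN and 69 in spleen, with a highest value of 14605 for Igkv1-117, and KI mouse 6 is at or near 0 apart from a few rows such as Igkv3-2, Igkv3-1 and Igkv2-109.

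Across the whole table, 84 of 10885 genes (0.772%) were over 32-fold higher in KI mouse 5 than in KI mouse 6 in both tissues, on the log2(value + 1) scale, and 0 were over 32-fold lower. Of those 84, 77 were Igkv segments, 5 were the Igkj joining segments, 1 was Igkc and 1 was Col6a4, a collagen chain gene. The 77 include the segments that are in the table only through KI mouse 5. The remaining 2 segments were Igkv8-16 and Igkv7-33, which passed 2-fold in both tissues. With segments at 0 set to 3 reads, 74 of 79 passed 32-fold in both tissues. The same count between Wt mice 1 and 2 was 0 of 79 segments in either direction, and 2 genes higher and 4 lower over the whole table.

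**Figure D3:**
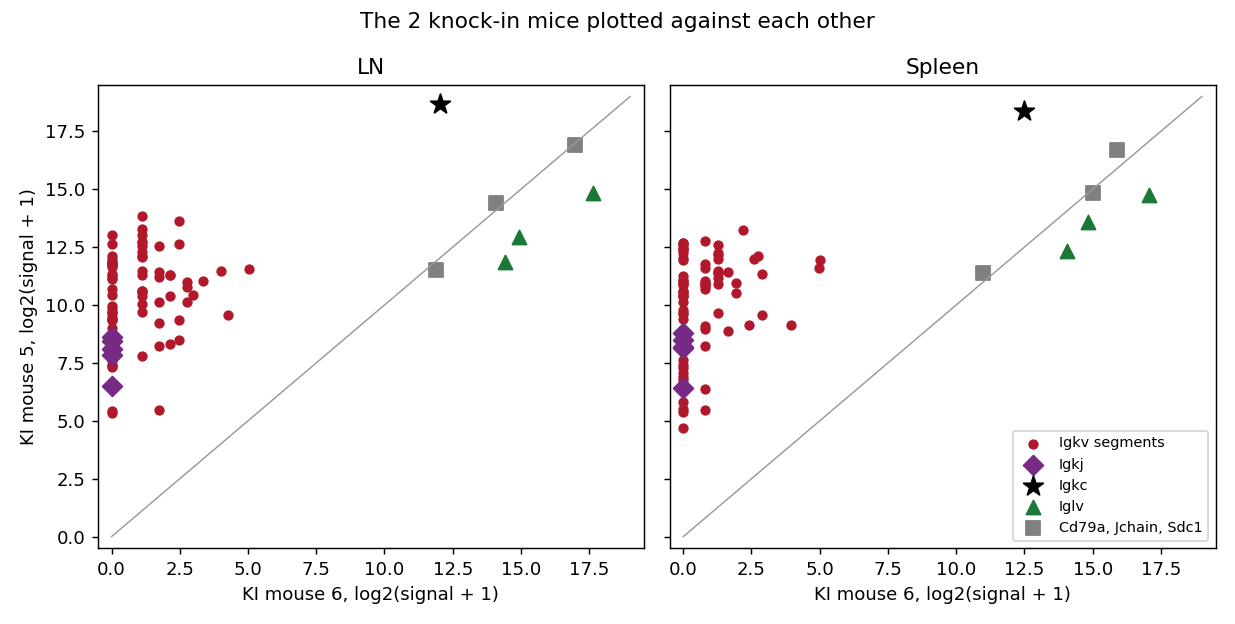
KI mouse 5 (vertical axis) against KI mouse 6 (horizontal axis), log2(normalised signal + 1), for LN and spleen; each point is 1 gene and the line marks equal values. All 79 Igkv segments, Igkj1 to Igkj5 and Igkc lie above the line, the 3 Iglv genes lie below it, and the B cell and plasma cell genes Cd79a, Jchain and Sdc1 lie near it.

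The rest of the kappa locus moved with the segments. Igkj1 to Igkj5, the joining segments, were all listed at 0 in both tissues of KI mouse 6, and summed to 1328 in KI mouse 5 LN against 676 and 638 in Wt LN, and to 1458 in KI mouse 5 spleen against 794 and 739 in Wt spleen. Igkc, the constant exon, read 419339 and 4235 in KI mice 5 and 6 LN, 31179 and 31009 in Tg LN, and 22589 and 26307 in Wt LN. In spleen Igkc read 336217 and 5793 in KI mice 5 and 6, 91369 in Tg mouse 4, and 69156 and 81719 in Wt. Igkc in KI mouse 6 was thus below Wt but was carried by far more signal than its variable segments. The ratio of Igkv to Igkc signal was 0.0396 in LN and 0.0245 in spleen of KI mouse 6, 0.493 and 0.514 in KI mouse 5, 0.408 to 0.609 in the 3 Tg libraries, and 0.516 to 0.535 in the 4 Wt libraries; it is a ratio of signals, not per length.

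The lambda variable genes were higher in both KI mice, and held nearly all light chain variable signal in KI mouse 6. Iglv1, Iglv2 and Iglv3 summed to 41240 in KI mouse 5 and 255641 in KI mouse 6 LN against 1361 and 1501 in Wt LN, and to 44821 and 184634 in KI spleen against 4711 and 5768 in Wt spleen. Igkv made up 83.4% of the Igkv and Iglv signal in KI mouse 5 LN, 79.4% in its spleen, 0.0656% and 0.0768% in KI mouse 6 LN and spleen, 87.3% to 92.3% in Tg libraries, and 88.4% to 90.0% in Wt libraries. Set against the heavy chain, Igkv was 1.45 and 1.52 times the summed Ighv signal in KI mouse 5, 0.00145 and 0.00201 times in KI mouse 6, 1.5 to 1.68 times in Tg, and 1.47 to 1.51 times in Wt. With Iglv added, the ratio of all light chain to heavy chain variable signal was 1.74 to 2.62 in the 4 KI libraries, 1.62 to 1.86 in Tg and 1.63 to 1.71 in Wt.

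The cell marker sums of the 2 KI mice lay much nearer to each other than their kappa sums did, apart from the erythroid sum in spleen. The 8 B cell markers summed to 87265 in KI mouse 5 and 69715 in KI mouse 6 LN, 64544 and 58352 in Tg LN, and 56197 and 63577 in Wt LN. In spleen they summed to 108729 and 118420 in KI mice 5 and 6, 87133 in Tg mouse 4, and 96155 and 89940 in Wt. The 10 plasma cell markers, all measured, summed to 145987 and 151097 in KI mice 5 and 6 LN against 7397 and 8961 in Wt LN, and to 127022 and 78522 in KI spleen against 19634 and 19577 in Wt spleen. Most of each KI sum was Jchain alone, at 122650 and 128795 in LN and 105380 and 61413 in spleen. In Wt it read 2972 and 3700 in LN and 11929 and 10992 in spleen. The size of the gap thus rests largely on 1 antibody chain gene, but the gap was not confined to it. Sdc1, 1 of the 10, read 2915 and 3760 in KI mice 5 and 6 LN against 163 and 207 in Wt LN. In spleen Sdc1 read 2692 and 2029 in KI against 412 and 398 in Wt. A sum without Jchain was not computed. Plasma cells carry much more antibody RNA per cell than other B cells, and their marker sum was higher in the KI libraries with both high and low Igkv. The part of plasma cells in the Igkv level of KI mouse 5 was not tested. The 8 germinal centre markers, of B cells in an ongoing immune response, summed to 17430 and 13580 in KI mice 5 and 6 LN, 4895 and 4043 in Tg LN, and 2948 and 2569 in Wt LN. In spleen they summed to 6213 and 4318 in KI, 3599 in Tg, and 2495 and 2700 in Wt, so they too were higher in both KI mice, and their part was not tested. The 8 T cell markers summed to 24170 and 30647 in KI LN against 57185 and 54192 in Wt LN, and to 13423 and 14249 in KI spleen against 27658 and 28546 in Wt spleen. The erythroid sum was 24559 in KI mouse 5 spleen and 2584 in KI mouse 6 spleen, against 981 and 533 in Wt spleen, and its part was not tested.

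The kappa signal of KI mouse 5 was spread over about as many segments as that of Wt. The effective number of segments, the exponential of the Shannon entropy of the shares, was 48.8 in LN and 51.2 in spleen of KI mouse 5, 51.6 to 52.6 in the 3 Tg libraries and 49.9 to 52.6 in the 4 Wt libraries. KI mouse 6 stood apart at 23.4 in LN and 15.6 in spleen, over its 146 and 198 reads. The other libraries held 7457 to 201379 Igkv reads. So few reads by themselves lower an effective number and raise the share of the leading segments, and how much was not tested. The differences and leading shares given next carry the same limit. KI minus Wt was -15.0 in LN (exact two-sided permutation p = 0.33, n = 2 against 2) and -18.0 in spleen (exact two-sided permutation p = 0.667), with 0.33 the smallest p possible. The 10 leading segments held 41.5% and 36.8% of the kappa signal in KI mouse 5 LN and spleen, 38.4% to 39.1% in Tg and 36.9% to 40.9% in Wt, against 64.4% and 77.8% in KI mouse 6.

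No single segment dominated outside KI mouse 6. The largest share of any segment in a library was 7.07% in KI mouse 5 LN (Igkv1-117) and 5.55% in its spleen (Igkv1-117 again). It was 5.37% (Igkv6-23), 7.69% and 4.50% (both Igkv10-96) in the Tg libraries, and 7.12% (Igkv3-12), 6.07% (Igkv10-96), 7.29% (Igkv5-39) and 4.69% (Igkv6-23) in the Wt libraries. The second segments were Igkv1-110 in both tissues of KI mouse 5 and in LN of Tg mouse 4, Igkv10-96 in LN of Tg mouse 3 and spleen of Wt mouse 1, Igkv19-93 in Tg spleen and LN of Wt mouse 1, Igkv8-30 in LN of Wt mouse 2 and Igkv3-4 in spleen of Wt mouse 2. Transcripts ran from 338 to 404 bases, and per kilobase of transcript the leading segment was the same in 11 of 11 libraries. Over the 9 libraries of the other 5 mice the mean share per kilobase was highest for Igkv10-96 (4.67% ± 1.62, SD over 9 libraries), Igkv6-15 (4.07% ± 0.586), Igkv1-117 (4.06% ± 1.04), Igkv1-110 (3.83% ± 0.760) and Igkv6-23 (3.23% ± 1.31), so each gap between neighbours in this order was below the larger of both SDs. Igkv6-15 was the steadiest of these 5, between 3.00% and 5.13%, and Igkv10-96 ranged from 2.5% to 7.89%. With the libraries of KI mouse 6 included, Igkv3-2 came 1st and Igkv2-109 came 3rd of 79 per kilobase.

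Segments among the 10 with the largest mean share over all 11 libraries also varied between libraries. Igkv1-135 held between 1.79% and 4.39% of the Igkv signal over the 9 libraries, Igkv6-23 between 1.49% and 5.37%, and Igkv6-17 between 1.23% and 3.45%. Igkv5-39 ranged from 0.986% to 7.29%, with the highest share in spleen of Wt mouse 1, where it read 2648 against 588 in spleen of Wt mouse 2. The Wt mice thus differed from each other in Igkv5-39 by more than Tg mouse 4 spleen, at 2090, differed from Wt mouse 1.

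The residual kappa reads of KI mouse 6 had another order. Igkv3-2 held 19.2% of them in LN (28 of 146 reads, 95% exact Clopper-Pearson interval 13.1% to 26.5%) and 21.2% in spleen (42 of 198 reads, 15.7% to 27.6%), against 1.44% and 1.77% in KI mouse 5, 1.43% to 1.58% in Tg libraries and 2.32% to 3.36% in Wt libraries. Igkv3-1 held 11% (16 reads, 6.40% to 17.2%) in LN and 10.1% (20 reads, 6.28% to 15.2%) in spleen, against 0.330% and 0.362% in KI mouse 5 and 0.153% to 0.724% in the Tg and Wt libraries. Igkv2-109 held 8.90% (13 reads, 4.83% to 14.7%) in LN and 22.2% (44 reads, 16.6% to 28.7%) in spleen, against 0.846% to 2.30% in the other 9 libraries. These 3 segments led in both tissues of the mouse, and all 3 lie in the orientation of Igkc in the annotation. In absolute signal they were nonetheless low: Igkv3-2 read 32.2 in LN and 30.1 in spleen of KI mouse 6 against 279 to 417 in Wt LN and 1220 to 1318 in Wt spleen.

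Orientation and position were read from the annotation's gene order, since it is of another build than the deposited data. Of the 79 segments, 30 have the orientation of Igkc and 49 the opposite one. The same-orientation segments held 47.9% and 47.6% of the Igkv signal in KI mouse 5 LN and spleen, 37.3% to 42.1% in Tg and 37.9% to 45.7% in Wt, against 58.2% and 74.7% in KI mouse 6. The 14 members among the 20 Igkv genes nearest to Igkj held 20.9% and 22.2% in KI mouse 5, 14.8% to 19.1% in Tg, 18.7% to 25.7% in Wt, and 41.8% and 38.9% in KI mouse 6. The orientation share of KI mouse 6 includes its leading segments Igkv3-2, Igkv3-1 and Igkv2-109. Together they held 39.0% of its Igkv reads in LN and 53.5% in spleen. Igkv3-2 and Igkv3-1 also count in its share nearest to Igkj. Shares without these leading segments were not computed, so a wider shift in orientation or position was not tested. Along the whole locus, Spearman's rho between distance in gene order and share lay between -0.22 and -0.03 in the 11 libraries, across 79 segments that are not independent replicates.

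Outside KI mouse 6 the 4 subfamilies with the most segments overlapped between groups. Igkv4, the largest subfamily with 18 measured segments, held 12.2% and 15.0% of the Igkv signal in KI mouse 5 LN and spleen, 11.4% to 13.3% in Tg and 12.3% to 15.4% in Wt. Igkv6 (8 segments) held 14.8% and 16.3% in KI mouse 5, 10.4% to 19.3% in Tg and 12.1% to 15.9% in Wt. Igkv1 (8 segments) held 15.4% and 12.2% in KI mouse 5, 12.5% to 14.3% in Tg and 10.5% to 12.9% in Wt, and Igkv8 (9 segments) held 12.2% and 11.2%, 9.68% to 12% and 7.97% to 13.9% in the same groups. The 15.4% of Igkv1 in KI mouse 5 LN lay above all Tg and Wt libraries.

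**Figure D4:**
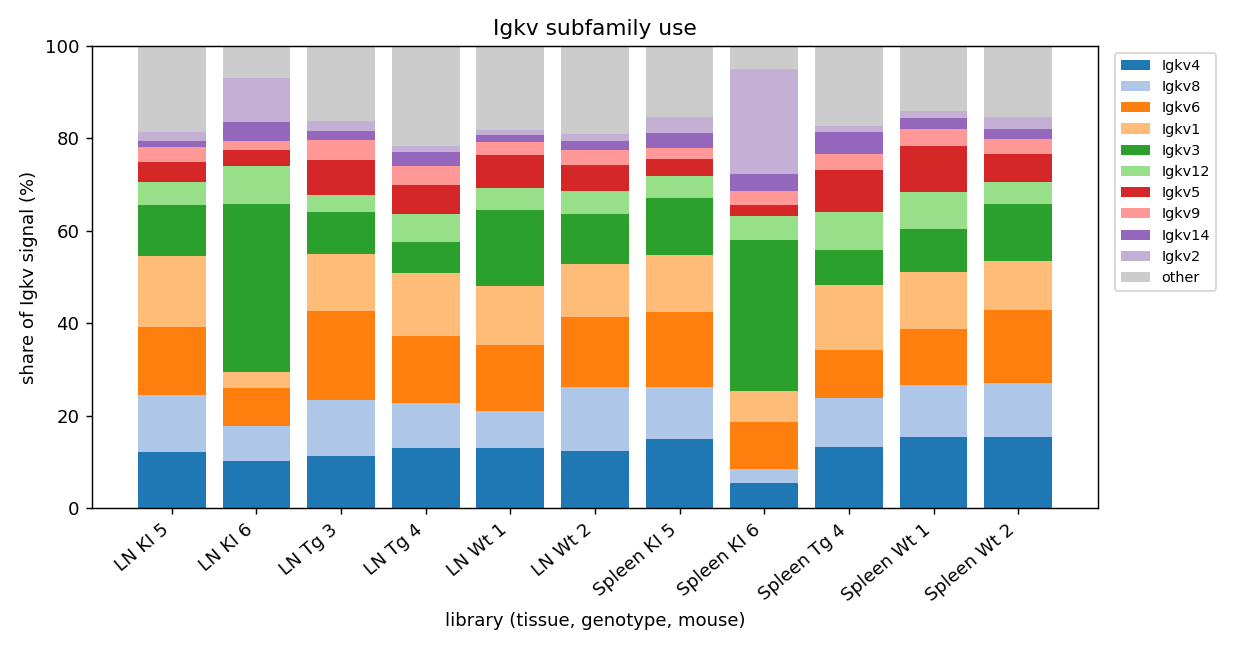
Share of the Igkv signal (%) held by each subfamily with 3 or more segments and by Igkv2, with the other subfamilies summed as "other", in each of the 11 libraries. In KI mouse 6 Igkv3 takes 36.3% in LN and 32.8% in spleen, and Igkv2 takes 9.59% and 22.7%, while over the other 9 libraries Igkv3 runs from 6.79% to 16.5% and Igkv2 from 1.09% to 3.46%.

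Several smaller subfamilies set a KI mouse apart. Igkv3 (7 segments) held 36.3% and 32.8% in KI mouse 6, against 10.9% and 12.5% in KI mouse 5, 6.79% to 8.91% in Tg and 9.34% to 16.5% in Wt; the highest Wt share was that of mouse 1 LN, where Igkv3-12 alone held 7.12%. Igkv2 (2 segments) held 9.59% and 22.7% in KI mouse 6 against 1.09% to 3.46% in the other 9 libraries. Igkv5 (4 segments) held 4.25% and 3.84% in KI mouse 5, 6.30% to 9.19% in Tg and 5.54% to 10% in Wt. Igkv17 (2 segments, singled out after its values were seen) held 7.11% and 6.54% in KI mouse 5, 2.51% to 4.62% in Tg and 2.5% to 4.51% in Wt, and had no read in either tissue of KI mouse 6. KI mouse 5 was thus below all Tg and Wt libraries for Igkv5 and above them for Igkv17. This was not particular to Igkv5 and Igkv17. KI mouse 5 was also below those libraries for Igkv10, with 4.07% and 2.90% against 4.79% to 9.13%. The same held for Igkv19, with 0.657% and 0.954% against 1.59% to 5.34%. Igkv10 and Igkv19 too were singled out after their values were seen. Igkv12 (6 segments) held 5.08% and 4.58% in KI mouse 5, 3.86% to 8.15% in Tg and 4.76% to 8.09% in Wt. Igkv9 and Igkv14 (3 segments each) stayed between 2.23% and 4.27% and between 1.32% and 4.66% in those 9 libraries. In KI mouse 6 a subfamily share rests on 146 or 198 reads, and its lower shares, such as 3.42% and 6.57% for Igkv1, count few of them.

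Whole segment profiles showed the same division. The share difference between 2 libraries, the part of the Igkv signal that would have to change segment to make them equal, was 17.1% to 24.9% for the 4 pairs of tissues from 1 mouse without mouse 6. It was 17.9% to 23.8% for the 3 pairs from 1 group, and 14.8% to 32.0% for the 13 pairs of the same tissue and different genotypes, so these ranges overlapped. Any pair of KI mouse 6 with another mouse differed by 59.5% to 71.9%, and its own LN and spleen by 32.1%. The shares of KI mouse 6 rest on 146 and 198 reads, against 7457 to 201379 in the other libraries. Counting error alone therefore adds to its differences, and how much was not tested.

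The tissues differed in Wt and Tg but not in the same way in KI. The log2 Igkv sum of LN minus spleen was 0.26 in KI mouse 5 and 0.24 in KI mouse 6, -1.88 in Tg mouse 4, and -1.59 and -1.69 in Wt mice 1 and 2. The sum in LN was thus 1.20 and 1.18 times that in spleen in the KI mice, 0.272 times in the Tg mouse, and 0.331 and 0.310 times in the Wt mice. Over the 5 mice with both tissues the mean was -0.93 (exact two-sided sign-flip permutation p = 0.25, where 0.0625 is the smallest possible). The share of reads that were Igkv in KI mouse 6 had overlapping counting intervals in LN and spleen, so the direction of its 0.24 is within counting error. For Igkc the same difference was 0.32 and -0.45 in KI mice 5 and 6, -1.56 in Tg, and -1.61 and -1.64 in Wt, so the KI mice went opposite ways in Igkc.

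**Figure D5:**
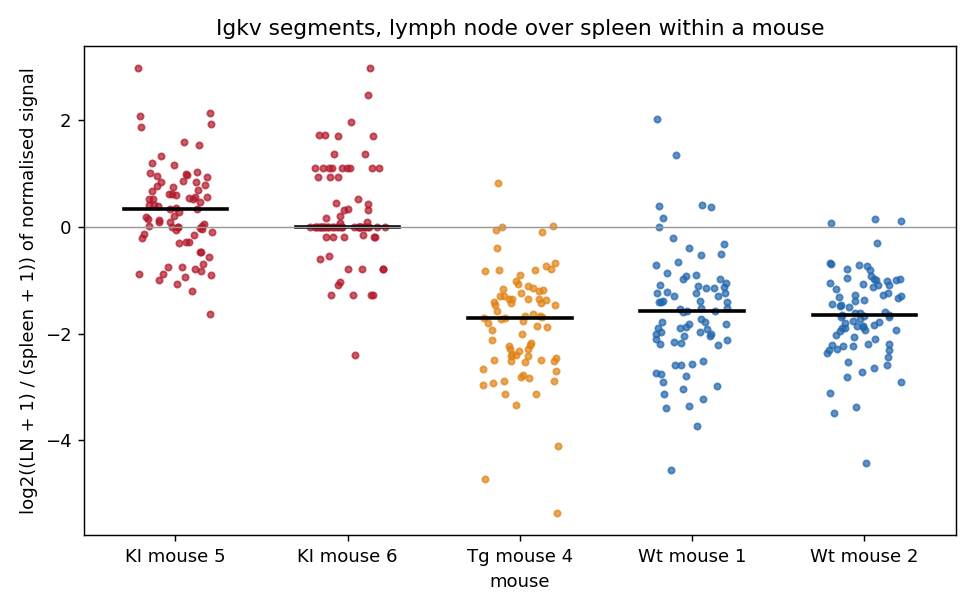
Log2 of LN over spleen normalised signal (1 added to each) for each of the 79 Igkv segments, 1 column per mouse, with the bar at the median. The medians are 0.33 and 0.00 in KI mice 5 and 6, -1.71 in Tg mouse 4, and -1.58 and -1.66 in Wt mice 1 and 2. In KI mouse 6, 29 segments had no read in either tissue and lie at 0 for that reason.

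By segment, 72 and 76 of 79 were lower in LN than in spleen in Wt mice 1 and 2 (45.7% and 51.4% of all genes), 76 in Tg mouse 4 (50.3%), 27 in KI mouse 5 (45.3%) and 19 in KI mouse 6 (51.2%), where a further 29 were equal, being at 0 in both tissues. In the fit over all 11 libraries, limma called 0 of 79 segments in LN against spleen of Wt mice (9.38% of all genes in either direction) and 0 at an unadjusted p under 0.05. With the mouse as a fixed block, 46 were called lower in Wt LN and 0 higher, where 9.38% of all genes were lower and 5.11% higher. Without the KI libraries 30 were lower and 0 higher, with 5.76% and 2.29% of all genes. The median residual SD of a segment was 0.521 on the log2 scale without the KI libraries, against 4.33 with them.

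Igkv3-2 had the smallest p of these tissue differences with the mouse as a block. It read 279 and 417 in LN of Wt mice 1 and 2, against 1220 and 1318 in their spleens. LN was lower in both mice, with a log2 difference of -1.89 ± 0.15 (SE, limma adjusted p = 1.14e-05). Igkv4-55 read 24.2 and 125 in Wt LN against 333 and 830 in Wt spleen (log2 difference -3.23 ± 0.27, limma adjusted p = 2.91e-05), and Igkv2-112 read 22.6 and 78.8 in Wt LN against 175 and 688 in Wt spleen (-3.01 ± 0.32, limma adjusted p = 7.07e-05). Igkv4-72 read 11.3 and 199 in Wt LN against 128 and 1405 in Wt spleen (-3.10 ± 0.27, limma adjusted p = 1.80e-05), so the Wt mice differed widely from each other while spleen was the higher within each mouse. The SEs here come from the fit with the mouse as a block. That fit has a term for each mouse, so it leaves fewer residual degrees of freedom than the main fit. Its SEs are moderated by limma across genes and pooled over all mice with both tissues, KI included. They therefore do not measure the spread between the mice of 1 genotype, and the adjusted p-values above rest on them.

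In KI, limma called 0 of 79 segments in LN against spleen (9.27% of all genes), and 6 higher and 2 lower with the mouse as a block (7.3% and 6.22% of all genes). Igkv8-21 had the smallest p in that fit, with 6303 and 4.6 in LN of KI mice 5 and 6 against 2096 and 0 in their spleens, so in KI mouse 6 it rests on 4 reads. The knock-in difference compared between tissues, an interaction, gave 0 calls of 79 over all libraries (0.955% of all genes) and a median of 1.95 on the log2 scale, against -0.01 over all genes. That median turned to -2.79 without LN of KI mouse 5 and to -2.67 without spleen of KI mouse 6, and was 6.46 without spleen of KI mouse 5 and 6.87 without LN of KI mouse 6. With the mouse as a block it gave 26 higher in LN and 0 lower, where 4.46% of all genes were higher and 1.02% lower; without the block, 3 were higher without mouse 5 (0.266% of all genes) and 7 without mouse 6 (0.129%). Igkv8-21 (2.91 ± 0.32), Igkv3-2 (1.92 ± 0.22) and Igkv1-110 (2.82 ± 0.27, log2 difference and SE with the block) led these 26. In KI mouse 6 Igkv1-110 rests on 4 reads in LN and 1 in spleen, and Igkv3-2 on 28 and 42. In KI mouse 6, 29 of 79 segments were at 0 in both tissues, so their LN minus spleen value is 0 by construction. Set against lower LN values in Wt, such zeros by themselves push the interaction upward. The 26 calls and the median of 1.95 are therefore in part fixed by the missing signal of that mouse. The limit on SEs of the block fit given above holds here too.

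No Igkv segment was called in the Tg mice, which carry the heavy chain 3'RR construct. In LN, Tg against Wt had 0 of 79 segments called, as were 0.0% of all genes, with a median of 0.22 on the log2 scale against -0.02 over all genes. In that comparison 12 segments had both Tg libraries above both Wt libraries and 9 had both below, of 79, against 12.7% and 14.6% of all genes. The log2 Igkv sum of Tg minus Wt LN was 0.12, with a pooled SD of 0.154 (exact two-sided permutation p = 0.667, n = 2 against 2), and the effective number of segments differed by 1.16 (exact two-sided permutation p = 0.667). Tg spleen, a single library, had a sum 1.39 times the Wt mean and 44 of 79 segments above both Wt libraries (32.3% of all genes), with 11 below both (32.1%). Limma called 0 of them against Wt, and 0.0% of all genes.

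Without the KI libraries, which narrows the spread of a segment, limma still called 0 of 79 in Tg against Wt in LN and 0 in spleen. The segments with the smallest p in LN were Igkv2-109, at 211 and 189 in Tg against 108 and 115 in Wt (log2 difference 0.84 ± 0.18), Igkv3-12, at 225 and 208 in Tg against 856 and 473 in Wt (-1.55 ± 0.31), and Igkv9-124, at 110 and 181 in Tg against 59.7 and 63.4 in Wt (1.19 ± 0.27), each with limma adjusted p = 0.878. In spleen they were Igkv5-43, at 2280 in Tg against 564 and 382 in Wt (2.29 ± 0.26, limma adjusted p = 0.126), and Igkv1-88, at 1571 in Tg against 170 and 70.8 in Wt (3.83 ± 0.49, limma adjusted p = 0.177).

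Igkv1-88 was also a case of a segment large in 1 library. It held 2.82% of the Igkv signal in spleen of Tg mouse 4, against at most 0.468% in any library of the other mice without KI mouse 6 (used throughout this comparison), and 0.245% in LN of the same mouse. Other segments of this kind, chosen after their values were seen, were Igkv4-61 in spleen of Wt mouse 1 (3.22% against at most 0.774% in other mice), Igkv4-80 in LN of Wt mouse 1 (1.90% against at most 0.386%) and Igkv4-86 in spleen of Wt mouse 1 (1.74% against at most 0.612%). Igkv6-13 was high in both tissues of its mouse, at 1.62% in LN and 1.27% in spleen of KI mouse 5 against at most 0.622% in other mice. Igkv4-86 also held 0.912% in LN of Wt mouse 1, while Igkv4-61 held 0.402% in LN of Wt mouse 1 and Igkv4-80 held 0.153% in its spleen, within the range of the other mice.

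The genes that work with the segments were read from a list of 29, of which 28 were measured: the kappa constant and joining genes, the lambda genes, the B cell and plasma cell transcription factors and the Rag recombinase. In KI against Wt LN, limma called 15 higher and 0 lower (13.8% of all genes higher, 12.2% lower). They were the lambda genes Iglc1, Iglc2, Iglv1, Iglv2 and Iglv3, the joining chain Jchain, the octamer factors Pou2f1 and Pou2f2 and their coactivator Pou2af1, Ikzf3, Irf8 and Spib of the B cell programme, Rag1 of the recombinase, and Xbp1 and Prdm1 of plasma cells. Igkc, Igkj1 to Igkj5 and the other 7 were not called. Without mouse 5 the count was 11 higher and 6 lower, and without mouse 6 it was 16 higher and 0 lower. Of the 15, 10 were called in both fits: the 5 lambda genes, Jchain, Pou2af1, Spib, Xbp1 and Prdm1. Pou2f1 (limma adjusted p = 0.104 without mouse 5 and 0.0586 without mouse 6) and Irf8 (limma adjusted p = 0.0771 and 0.204) lost their calls in both, as did Rag1, while Pou2f2 (limma adjusted p = 0.227) and Ikzf3 (limma adjusted p = 0.0962) lost theirs without mouse 5. The 16 without mouse 6 include 4 genes not called with all libraries, Igkc, Igkj4, Igkj5 and Iglc3.

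The 6 called lower without mouse 5 were Igkc, at -2.52 ± 0.18 on the log2 scale (limma adjusted p = 7.22e-05), and Igkj1 to Igkj5, which were listed at 0 in KI mouse 6. Without mouse 6 Igkc was higher, at 4.10 ± 0.19 (limma adjusted p = 1.27e-05). The lambda gene Iglv1 kept its direction in both, at 7.98 ± 0.48 without mouse 5 (limma adjusted p = 0.000856) and 5.21 ± 0.48 without mouse 6 (limma adjusted p = 0.00365). It read 29657 and 202593 in KI mice 5 and 6 LN against 760 and 842 in Wt LN, so both KI mice were above Wt.

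In KI against Wt spleen, 5 of the 28 were called higher (7.63% of all genes) and 1 lower (9.21%). The 5 were Iglv2, Jchain, Ikzf3, Rag1 and Xbp1, and Irf4, a factor of plasma cells and of light chain recombination, was lower at -1.18 ± 0.31 (limma adjusted p = 0.0432). The Irf4 call was lost without mouse 5 (-1.19, limma adjusted p = 0.193) and without mouse 6 (-1.17, limma adjusted p = 0.222). Ikzf3 was also lost without mouse 5 (limma adjusted p = 0.140) and without mouse 6 (limma adjusted p = 0.0636), and Iglv2 without mouse 6 (limma adjusted p = 0.0551), which left Jchain and Xbp1 called in both. Rag1, the recombinase that cuts Igkv and Igkj, read 92.6 and 360 in spleen of KI mice 5 and 6, 3.19 in Tg and 4.64 and 21.2 in Wt, and 45 and 54.0 in KI LN, 7.08 and 1.69 in Tg LN, and 0 and 3.28 in Wt LN. Its calls were lost without either KI mouse in LN (limma adjusted p = 0.0701 without mouse 5 and 0.0941 without mouse 6) and in spleen (limma adjusted p = 0.0829 and 0.307). Its log2 difference in LN was 4.60 with all libraries, 4.73 without mouse 5 and 4.47 without mouse 6, and in spleen 4.04, 5.01 and 3.06. In KI against Tg LN the list had 15 higher and 0 lower (14.5% and 12.2% of all genes), in Tg against Wt 0 in either tissue, and in Wt LN against spleen 0 higher and 6 lower (3.09% and 6.29%).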

How the data were processed

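RNA-seq of 11 libraries (LN and spleen of 6 mice) was used. The deposited table holds a normalised signal per gene, in which the authors scaled the read count of each gene by a factor set per library; this was read from the values, since each value was a whole multiple of 1 step per library (100% of values within 0.05 reads, in all libraries). The step is best read from values of up to 20 reads, of which a library had 151 to 303 in LN but only 41 to 73 in spleen. Recovered counts were therefore tested in LN only, and read numbers and intervals given for spleen rest on those fewer values. Tools named in the submitters' processing notes, without their roles, are STAR 2.5, featureCounts (Subread 1.4.6), DESeq2 1.26.0 and FastQC 0.11.5, with GRCm39 as the build. The strand setting, gene filter and annotation release are not given in the sources used here.

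Group means of 6 groups were fitted with limma 3.58.1 (R 4.3.3; trend, robust) on log2(value + 1) over all 10885 genes and 11 libraries, leaving 5 residual degrees of freedom, with Benjamini-Hochberg adjustment and calls at 0.05. Fold changes are on that log2(value + 1) scale and understate the change of low genes. An edgeR test had been planned for counts; edgeR 4.0.16 and DESeq2 1.42.0 on LN reads were alternatives, as were pseudocounts of 0.1 and 5, a minimum mean of 10, other scalings, the mouse as a block and the omission of each library or mouse. The omission of a mouse, the fit without KI libraries, edgeR, DESeq2, arithmetic means and per-kilobase shares were chosen after seeing the data. Sums and effective numbers were compared by exact permutation. The limma and edgeR fits of KI against Wt LN were run on simulated counts whose spread came from the Wt and Tg libraries. The other steps were not tested in this way.

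LN and spleen with 1 mouse number came from the same animal per the labels. Their deviations from group means correlated at r = 0.403 in Wt and 0.900 in KI over all genes. The KI value includes the kappa genes that set the 2 KI mice far apart in both tissues, and r without them was not computed. Named segments were the 10 with the largest mean share, the 2 largest in each library and those with the smallest p; named subfamilies had 3 or more segments or 10% of the signal somewhere. The members and lists were chosen with earlier results of these data known. Annotation order, orientation and sequences came from GENCODE M21 (GRCm38), matching 79 of 79 by identifier; no positions are given, since the deposited data name another build. A member of the B cell marker list is not reported here and is left out of its sum.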

Additional observations from a re-analysis of the deposited data

Results flagged for a closer look

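Of 12 quantities compared between tissues within mice, 2 had both KI mice moving one way and both Wt mice the other; neither difference was itself tested, and 2 mice against 2 could not give a permutation p below 0.33. The log2 Igkv sum of LN minus spleen was 0.26 and 0.24 in KI mice 5 and 6 against -1.59 and -1.69 in Wt mice 1 and 2, a difference of means of 1.89. The 2 KI mice lay far apart in level, at sums of 206681 and 168 in LN. In KI mouse 6 the Igkv reads were 0.000965% of the LN library (95% exact Clopper-Pearson interval 0.000815% to 0.00114%) and 0.000821% of the spleen library (0.000711% to 0.000944%), so its direction is within counting error.

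The Igkv5 share of LN minus spleen was 0.404 and 0.899 percentage points in KI mice 5 and 6 against -3.02 and -0.650 in Wt mice 1 and 2, a difference of means of 2.49 points. In KI mouse 6 that share is 5 of 146 Igkv reads in LN and 5 of 198 in spleen, too few to give a direction, and in Wt mouse 1 Igkv5-39 alone held 7.29% of the Igkv signal in spleen.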

How the results depend on the processing

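With all libraries, limma called 0 of 79 segments in each of 8 comparisons, 0 of them at an unadjusted p under 0.05. Leaving out both tissues of a mouse gave 0 to 69 calls in KI against Wt LN, 0 to 73 in spleen, 0 to 71 in KI against Tg LN, 0 to 29 in LN against spleen of Wt, 0 to 3 of KI and 0 to 7 in the interaction; KI mouse 5 or 6 was the mouse left out at each non-zero count, with 61 and 69 in KI against Wt LN, 29 and 73 in spleen, and 59 and 71 against Tg without mouse 6 and 5. The one single library whose omission gave a call was spleen of KI mouse 5 (1 call in spleen). With the mouse as a fixed replicate block the counts were 46 in Wt, 8 in KI and 26 in the interaction; the mouse as a random block (correlation 0.0168) changed no call. Without the KI libraries LN against spleen of Wt had 30 calls. DESeq2 called 1 in KI against Wt LN, and quantile normalisation gave 1 in spleen. With subfamilies in place of segments, the effective number of KI minus Wt LN was -1.73. In the interaction the sign turned when LN of KI mouse 5 or spleen of KI mouse 6 alone was left out: over all single omissions Igkv8-21 ranged from -2.61 to 8.43, Igkv3-2 from -1.39 to 5.23 and Igkv1-110 from -3.17 to 8.80. The cause was not tested. Groups of 2 mice limit every comparison, and 146 and 198 reads limit each share in KI mouse 6.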

Other observations

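Col6a4, a collagen chain gene, was the one gene outside the kappa locus that was over 32-fold higher in KI mouse 5 than in KI mouse 6 in both tissues, and was singled out after its values were seen. It read 461 in LN and 870 in spleen of KI mouse 5, 3.45 and 1.43 in KI mouse 6, 0.799 to 4.25 in the 3 Tg libraries, and 0 to 2.36 in the 4 Wt libraries. KI mouse 5 was thus high in both tissues and the other 9 libraries were at or near 0.

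The lambda constant genes divided the KI mice less than the kappa genes did. Iglc1 read 23896 and 147481 in KI mice 5 and 6 LN, 1091 and 685 in Tg LN, and 692 and 826 in Wt LN. Iglc2 read 10663 and 39361 in KI mice 5 and 6 LN, 2715 and 1742 in Tg LN, and 1735 and 2052 in Wt LN. Both KI mice were above all Tg and Wt libraries of LN for both genes.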
